A study of Homo sapiens with 4 samples.

Results

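The genes that build heparan sulfate, chondroitin sulfate, dermatan sulfate and hyaluronan were examined in a pooled CRISPR-Cas9 knockout screen of HCT116, an established cell line from a human colon carcinoma, exposed to oxaliplatin. Members were taken by gene symbol (XYLT, B4GALT7, B3GALT6, B3GAT, EXT, EXTL, NDST, GLCE, HS2ST, HS3ST, HS6ST, CHSY, CHPF, CHST, CSGALNACT, DSE, UST, HAS, UGDH, UXS1 and PAPSS), which gave 232 sgRNAs on 58 genes, 4 per gene, of the 7142 sgRNAs counted. All cells carried the lentiviral metabolic library and had been selected with puromycin, and they were then kept for 7 days with PBS (1 library) or with 10 µM oxaliplatin (3 libraries, replicates 1 to 3). Readout was the count of each sgRNA in genomic DNA of the surviving cells, so a higher share of an sgRNA stands for a higher share of cells that carried it. No library from before the treatment and no second PBS library was analysed here, and no label says that the 3 oxaliplatin libraries were separate cultures, so p-values measure only the spread between these libraries. Higher and lower below mean oxaliplatin against the library labelled PBS, as the labels of the counts give it. The study's own gene lists carry the opposite sign for these comparisons, and read as oxaliplatin against PBS they would call genes depleted that have more counts with oxaliplatin here. Whether the ratio of those lists or a label of the counts is turned around cannot be told from the counts, so each direction below rests on the labels. The identity of the line cannot be checked against marker genes in counts of sgRNAs.

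Glycosaminoglycans are long sugar chains of the cell surface and matrix. Heparan and chondroitin chains begin on a serine of a core protein with a shared linker of xylose, galactose and glucuronic acid, are lengthened by alternating transferases, and are then epimerized and sulfated. UDP-glucuronic acid, UDP-xylose and the sulfate donor PAPS supply these steps, whereas hyaluronan is spun out at the plasma membrane without linker or sulfate. In epithelial cells the heparan chains hold growth factors such as FGFs near their receptors. Not all members act on these chains: CHST1 and CHST6 sulfate keratan, CHST2, CHST4 and CHST5 sulfate N-acetylglucosamine of other glycans, CHST8 and CHST9 act on glycoprotein hormones, and B3GAT1, B3GAT2 and CHST10 make the HNK-1 epitope. These 10 genes were kept apart below.

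Library totals were 8934799 counts with PBS and 27563013, 10494731 and 11146921 counts in oxaliplatin replicates 1, 2 and 3. Of the 232 member sgRNAs, 30 were at 0 in the PBS library (12.9%, 95% exact binomial interval 8.90 to 17.9), against 19.0% of all sgRNAs. At 0 with oxaliplatin were 6, 1 and 1 member sgRNAs in replicates 1, 2 and 3, and 173 members (74.6%) reached 100 counts in the PBS library against 68.0% of all sgRNAs. The sgRNAs missing with PBS were spread unevenly over the steps, at 6 of 16 for precursor supply, 5 of 20 for heparan N-sulfation and epimerization and 1 of 20 for the linker. Replicate 1 was less even than the others: 66 member sgRNAs (28.4%, against 33.2% of all) lay at least 10-fold below the mean of replicates 2 and 3 in CPM (counts scaled to equal library totals) there. Replicates 2 and 3 lay within 2-fold of each other for 84.8% of member sgRNAs.

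HAS3, HS3ST3B1 and PAPSS1 stood highest among the 58 genes with oxaliplatin, and EXTL2 stood lowest. Were the labels turned around, those 3 would be the lowest and EXTL2 the highest. As summed counts of the 4 sgRNAs per gene, none of the 58 passed edgeR's quasi-likelihood test at an adjusted p under 0.05 in either direction. The same fit called 0 of 1823 genes and single-sgRNA entries, a background of 0% higher and 0% lower. At an unadjusted p under 0.05 edgeR had 3 member genes higher and 1 lower, against 85 and 33 over all. DESeq2 called 4 member genes higher (HAS3, PAPSS1, HS3ST3B1 and CHST9, 6.90% of 58 against a background of 6.75%) and EXTL2 lower (1.72% against 2.03%).

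Of single sgRNAs, edgeR called 13 of 231 members tested higher (5.63%) and 0 lower, where it called 8.31% of all 7126 sgRNAs higher and 0% lower. Without adjustment, at a p under 0.05, 44 members were higher (19.0%, against 25.8% of all) and 2 lower (0.866% against 1.46%). The 13 lay on 12 genes: B4GALT7, XYLT2, CHPF (both of its scarce sgRNAs), CSGALNACT1, CSGALNACT2, CHST11, CHST12, HS3ST3B1, HS6ST1, HS6ST2, PAPSS1 and HAS3. Each of these 13 had at most 3 counts with PBS, and 8 had 0. Of the 185 members with 3 or more counts with PBS, 1 was called, an sgRNA of CSGALNACT1 at 3 counts. The part of the scarce PBS counts in these calls was not tested. With scaling by total counts edgeR called 0 of all 7126 sgRNAs, none of the 13 among them. At an unadjusted p under 0.05, 41 members were then higher (17.7%, against 20.6% of all). DESeq2 called 49 members higher (21.2%) and 0 lower, against a background of 28.4% and 0.407%. Both member shares of higher calls lay below those backgrounds.

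Gene values below are the median over the 4 sgRNAs of log2((oxaliplatin + 1)/(PBS + 1)) after median-ratio scaling, without sgRNAs at 0 in both libraries compared. Among members an sgRNA was so left out for EXT1, CSGALNACT1 and CSGALNACT2 in replicate 1 and for DSEL in all 3 replicates. The median over all 1773 genes in the same library was then subtracted, and values are given as mean ± SD over the 3 oxaliplatin libraries. That subtracted median was 0.14, 0.24 and 0.23 in replicates 1, 2 and 3, and its mean over libraries was 0.20 with median ratios, 0.80 with TMM and -0.01 with total counts. All 3 values share the PBS library. Over the 58 genes the median was -0.11 ± 0.10, where 0 is the median gene of the library. 17 genes (29.3%) lay above that median gene in 3 of 3 libraries and 21 (36.2%) below it, against 37.9% and 36.8% of all genes. With only sgRNAs of at least 100 PBS counts the median of all genes was itself lower by 1.18, so a gene with all 4 sgRNAs above that minimum, as 23 of the 58 had, moved up by 1.18 with no change in its counts. Values under this minimum are therefore given against both references, and the median over member genes was 0.45 against the genes of such sgRNAs and -0.73 against all genes over all sgRNAs. The floor of 3 counts used below lowered the median of all genes by 0.12. A summed CPM is the total of the 4 sgRNAs of a gene in CPM, and sgRNAs of a gene are numbered by their ID. The median gene of the library had 454 CPM with PBS and 240, 427 and 454 CPM in replicates 1, 2 and 3. A summed CPM in replicate 1 therefore reads lower against PBS than the same sum after median-ratio scaling.

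Precursor supply held the gene with the fewest PBS counts of all members. PAPSS1, a synthase of the sulfate donor PAPS, had 1 count over its 4 sgRNAs with PBS and 2925, 823 and 1279 counts in replicates 1, 2 and 3, or 0.112 CPM against 106, 78.4 and 115. Its relative log2 fold change was 7.32 ± 0.88, or 6.07 where a floor of 3 replaced lower counts, and all 4 sgRNAs lay above the median sgRNA in 3 of 3 libraries. edgeR gave the sum an adjusted p of 0.230. The ratio of the summed count in replicate 2 was 659, with a 95% counting interval of 118 to 26077 that covers counting error only. PAPSS2, the paralog that makes the same donor, went the other way as a median over sgRNAs, at -1.07 ± 0.15. Its sum was 578 CPM with PBS and 135, 347 and 346 CPM with oxaliplatin. The sgRNA 4 of PAPSS2, at 0 with PBS, rose like those of PAPSS1, to 82, 717 and 550 counts. Its sgRNAs 2 and 3 lay below the PBS library in 3 of 3 libraries, and sgRNA 1 lay above it only in replicate 1. UGDH, which oxidizes UDP-glucose to UDP-glucuronic acid, was at -0.86 ± 1.24, with 171 CPM against 67.0, 53.3 and 105. UXS1, which decarboxylates UDP-glucuronic acid to UDP-xylose, had 285 CPM against 302, 230 and 243 and lay at -0.33 ± 0.59, within its own spread. With PBS, 1 sgRNA of each of PAPSS2, UGDH and UXS1 was at 0, and 3 of PAPSS1. The median over the 4 genes was -0.41 ± 0.60, within the spread between libraries.

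In the linker, 4 of 5 genes had a mean below the median gene and 3 of 5 lay below it in all 3 libraries. XYLT1 and XYLT2, the xylosyltransferases that start both chains, were at -1.26 ± 0.58 and -1.02 ± 0.12. XYLT2 had 638 CPM with PBS and 150, 466 and 356 CPM with oxaliplatin, so the PBS value lay outside the range of the others. Its sgRNA 1 nonetheless went from 0 counts to 888, 740 and 450 (at least 179-, 198- and 106-fold against a floor of 3 counts per library, edgeR adjusted p = 0.0415), while sgRNAs 2 to 4 lay below the PBS library in 3 of 3, at ratios of 0.404, 0.438 and 0.315 for sgRNA 2. B4GALT7, which adds the galactose next to xylose, was the highest of the step at 0.45 ± 0.89, with 503 CPM with PBS and 302, 1117 and 1077 with oxaliplatin. In CPM replicate 1 lay under the PBS value and replicates 2 and 3 above it, but after median-ratio scaling the sum of B4GALT7 was 1.12-, 2.09- and 1.89-fold. Its sgRNA 3 had 1 count with PBS and 472, 496 and 596 with oxaliplatin (edgeR adjusted p = 0.0440), but sgRNA 4, with 1650 PBS counts, had 22, 697 and 973. B3GALT6, which adds the next galactose, was the most abundant member gene with PBS at 3437 CPM, with 1026, 3007 and 2807 CPM with oxaliplatin, and lay at -0.20 ± 0.18. B3GAT3, which closes the linker with glucuronic acid, was at -0.62 ± 0.89, and its sum ran from 1296 to 5575 CPM with oxaliplatin around 2068 CPM with PBS. The median of the step was -0.68 ± 0.09. It fell on B4GALT7, B3GAT3 and XYLT1 in replicates 1, 2 and 3, so its small spread is not that of any gene. With only sgRNAs of at least 100 PBS counts the step median was 0.21 against the genes of such sgRNAs and -0.97 against all genes over all sgRNAs.

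All 5 heparan polymerase genes had means below the median gene, from -4.03 to -0.12, and 3 lay below it in 3 of 3 libraries. EXTL2, an N-acetylhexosaminyltransferase related to the polymerases that can end a chain at the linker, had 287 CPM with PBS and 15.0, 31.7 and 68.9 CPM with oxaliplatin. Every oxaliplatin library lay below the PBS library, at a relative log2 fold change of -4.03 ± 1.43, and edgeR gave the sum a log2 fold change of -2.69 (SE 0.76, adjusted p = 0.694, lower in 3 of 3 libraries). DESeq2 called it lower (adjusted p = 0.00584). Its sgRNAs 1, 2 and 4 went from 1461, 444 and 656 PBS counts to 363, 0 and 3 in replicate 1, to 202, 29 and 8 in replicate 2 and to 472, 50 and 138 in replicate 3. The remaining sgRNA 3 opposed them, with 0 counts with PBS and 47, 94 and 108 with oxaliplatin.

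EXT1 and EXT2, the subunits of the heparan co-polymerase, differed in sign in replicates 2 and 3 as medians over sgRNAs, but not as scaled sums. EXT2 had 800 CPM with PBS and 124, 441 and 513 CPM with oxaliplatin (-1.47 ± 0.98, below in 3 of 3). EXT1 had 107 CPM with PBS and 5.19, 76.7 and 118 CPM with oxaliplatin. Scaled by median ratios, the sum was 0.09-, 0.68- and 0.97-fold for EXT1 and 0.29-, 0.52- and 0.56-fold for EXT2. The relative log2 fold changes of EXT1, at -4.72, 1.52 and 2.19, changed sign between replicate 1 and the others. They rested on 2 sgRNAs of 117 and 837 PBS counts, which lay below the PBS library in 3 of 3, and 2 of 0 and 1. The sgRNA at 0 with PBS was also at 0 in replicate 1 and left out there, so the value of replicate 1 is not over the same sgRNAs as the others. EXTL3, which starts the heparan chain on the linker, was at -1.18 ± 0.19 and below in 3 of 3, with 803 CPM against 431, 546 and 689. After median-ratio scaling its sum was 1.00-, 0.64- and 0.76-fold. EXTL1 was the highest of the step at -0.12 ± 0.41. The step median was -1.47 ± 0.98, the lowest of the 9 steps, and in each library it was the value of EXT2. With only sgRNAs of at least 100 PBS counts it was -0.47 against the genes of such sgRNAs and -1.65 against all genes over all sgRNAs.

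The N-deacetylase/N-sulfotransferases NDST1 to NDST4, which begin heparan sulfation, and the epimerase GLCE showed no common direction. NDST3 was highest at 1.14 ± 1.28 and NDST4 lowest at -0.94 ± 1.09, both about as large as their spread. As sums after median-ratio scaling their order was reversed, at 0.30-, 0.57- and 0.88-fold for NDST3 and 1.45-, 0.91- and 0.98-fold for NDST4. With PBS, 2 of the sgRNAs of NDST3 were at 0. NDST1, the main isoform of most tissues, had 695 CPM with PBS and 134, 1076 and 922 CPM with oxaliplatin, below the PBS value in replicate 1 and above it in the others. GLCE, which turns glucuronic into iduronic acid, was split between its sgRNAs. sgRNA 4 went from 815 PBS counts to 85, 82 and 197, and sgRNA 2 from 129 to 8, 47 and 50, whereas sgRNA 1 went from 0 to 6748, 480 and 748 and sgRNA 3 from 0 to 3, 25 and 60. Of the 20 sgRNAs of this step edgeR called 0 in either direction. The step median of 0.53 ± 1.20 was smaller than its spread, and it was -0.08 where a floor of 3 replaced lower counts.

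Heparan O-sulfation held the widest range of any step, from HS3ST5 at -2.53 ± 1.34 to HS3ST3B1 at 8.54 ± 0.96. HS3ST3B1, a 3-O-sulfotransferase, had 41.2 CPM with PBS and 1511, 452 and 408 CPM with oxaliplatin, all above the PBS value. Its 4 sgRNAs each lay above the median sgRNA in 3 of 3 libraries, the gene was at 7.42 at the floor of 3 counts, and edgeR gave the sum a log2 fold change of 4.94 (SE 1.81, adjusted p = 0.709), which DESeq2 called (adjusted p = 0.00107). Of these, sgRNA 1 went from 1 to 283, 675 and 526 counts (edgeR adjusted p = 0.0483), and the well-counted sgRNA 2 from 366 to 5349, 2391 and 1930 counts, an 8.83-, 5.23- and 3.72-fold difference (edgeR adjusted p = 0.194). Its close paralog HS3ST3A1, named here after its values were seen, lay at -1.53 ± 0.69, with 2340 CPM with PBS and 422, 1754 and 1901 CPM with oxaliplatin. HS3ST5, another 3-O-sulfotransferase, had all 4 sgRNAs below the median sgRNA in 3 of 3 libraries, with 539 CPM with PBS and 27.9, 257 and 280 CPM with oxaliplatin (edgeR log2 fold change of the sum -1.40, SE 0.98, adjusted p = 0.788).

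Among the other O-sulfotransferases, HS2ST1, the lone 2-O-sulfotransferase, differed between libraries, with 337 CPM with PBS and 1706, 298 and 298 CPM with oxaliplatin (-0.68 ± 2.71). HS6ST1, a 6-O-sulfotransferase, was above the median gene in 3 of 3 libraries at 3.46 ± 0.57. That value came from 2 scarce sgRNAs, of which sgRNA 4 went from 0 to 2018, 370 and 676 counts (edgeR adjusted p = 0.0468), while sgRNA 2 went from 577 to 29, 104 and 256. With only its 2 sgRNAs of at least 100 PBS counts HS6ST1 was at -0.84 against the genes of such sgRNAs, and lower still against all genes. HS6ST2 had 1 sgRNA called higher, from 0 to 961, 513 and 729 counts (edgeR adjusted p = 0.0415). 6 of the 11 genes lay above the median gene in 3 of 3 libraries and 3 below, and the step median was 0.41 ± 0.66.

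Chondroitin polymerization had 4 of the 13 called sgRNAs, on 3 genes. CHPF, the polymerizing factor that works with the synthases, was highest at 3.46 ± 1.03. Its sgRNAs 1 and 2 each had 2 counts with PBS and 2009, 1013 and 2149 or 2011, 4508 and 2969 counts with oxaliplatin (both with an edgeR adjusted p of 0.0415). Yet sgRNAs 3 and 4, of 1816 and 4399 PBS counts, had 56, 1991 and 1680 and 483, 5993 and 5490, near the PBS level in replicates 2 and 3 and far below it in replicate 1. CSGALNACT1 and CSGALNACT2, which add the N-acetylgalactosamine that commits the linker to chondroitin, each had 1 called sgRNA, from 3 to 886, 652 and 504 counts (edgeR adjusted p = 0.0492) and from 0 to 771, 655 and 762 counts (edgeR adjusted p = 0.0415). CSGALNACT1 as a gene spread from -5.38 in replicate 1 to 2.71 in replicate 3, and CSGALNACT2 was at 1.96 ± 0.94. In both genes sgRNA 1 was at 0 with PBS and in replicate 1 and was left out there. Their values in replicate 1 are therefore not over the same sgRNAs as the others.

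CHSY1, the main chondroitin synthase, was the lowest of the step at -2.23 ± 0.99, with all 4 sgRNAs below the median sgRNA in 3 of 3 libraries, sgRNA 3 only barely so in replicate 1. Its sum was 743 CPM with PBS and 210, 375 and 399 CPM with oxaliplatin (edgeR log2 fold change -0.88, SE 0.46, adjusted p = 0.724). The related CHSY3 lay at -0.38 ± 0.14 as a median over sgRNAs, but its sum after median-ratio scaling was 0.85-, 2.22- and 2.04-fold. CHPF2 held the member sgRNA with the most counts in replicate 1. Its sgRNA 2 had 3016 counts with PBS, 511663 in replicate 1 and 3033 and 4236 in replicates 2 and 3, and it made up 26.8% of all member counts in replicate 1. Its sgRNA 1 was 4.59-fold higher in replicate 1 and sgRNAs 3 and 4 were lower there, and as a median the gene lay at -0.26 ± 0.41. The step median was 0.18 ± 0.45 and -0.78 where the mean over sgRNAs replaced the median.

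Genes with all 4 sgRNAs on the same side of the median sgRNA in 3 of 3 libraries were few. HAS3, HS3ST3B1 and PAPSS1 were above (5.17% of 58, against 2.26% of all genes), and CHSY1 and HS3ST5 below (3.45% against 1.97%). The upper 3 had 3, 3 and 4 sgRNAs under 3 counts with PBS, and the lower 2 had 0.

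Sulfation and epimerization of chondroitin and dermatan centred near the median gene, at 0.08 ± 0.19. With only sgRNAs of at least 100 PBS counts the step was at 1.03 against the genes of such sgRNAs and at -0.15 against all genes over all sgRNAs. CHST11, the chondroitin 4-O-sulfotransferase, had sums of 1251 CPM with PBS and 1245, 1297 and 1132 CPM with oxaliplatin (0.05 ± 0.59). After median-ratio scaling its sum was 1.85-, 0.98- and 0.80-fold in replicates 1, 2 and 3. Its sgRNA 4 went from 0 to 333, 385 and 462 counts (edgeR adjusted p = 0.0426). CHST12, its paralog, had 1 called sgRNA, from 0 to 320, 1183 and 871 counts (edgeR adjusted p = 0.0415), and was at 1.22 ± 1.00. CHST14, which sulfates dermatan, was at 0.45 ± 0.42, and UST, the uronyl 2-O-sulfotransferase, at -0.66 ± 0.75. The sum of UST was nonetheless 3.00-, 1.98- and 1.71-fold after median-ratio scaling. CHST7, a chondroitin 6-O-sulfotransferase, was lowest at -1.21 ± 0.26, with 1354 CPM with PBS and 395, 707 and 846 CPM with oxaliplatin, below in 3 of 3. Of the dermatan epimerases, DSEL was highest at 5.57 ± 1.82 (3.78 at the floor of 3 counts). It had 3 sgRNAs at 0 with PBS, of which 1 was at 0 in all 4 libraries and left out of the fit. The sum of DSEL after median-ratio scaling was only 1.16-, 1.36- and 1.67-fold. Its well-counted sgRNA 3 had 839 counts with PBS and 1580, 952 and 1485 with oxaliplatin. DSE was at 0.84 ± 1.70, and its sgRNA 4 had 386 counts with PBS, 93834 in replicate 1 and 366 and 624 in replicates 2 and 3.

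The 10 genes of other glycans had no called sgRNA among 40. CHST9 was highest at 4.05 ± 1.74 (2.54 at the floor), from 7.50 CPM with PBS to 26.3, 26.9 and 45.1 CPM, the lowest abundance of any member in replicates 2 and 3. CHST10, which sulfates the HNK-1 epitope, was lowest at -2.16 ± 1.17, with 792 CPM with PBS and 332, 486 and 432 CPM with oxaliplatin. 5 of the 10 lay below the median gene in 3 of 3 libraries and 2 above, with a median of -0.32 ± 0.17. In 7 of the 10 all 4 sgRNAs had at least 100 PBS counts, and with only such sgRNAs the median was 0.68 against the genes of such sgRNAs and -0.51 against all genes over all sgRNAs.

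The hyaluronan synthases ranked HAS3, HAS2 and HAS1 from high to low. HAS3, which makes shorter hyaluronan chains, had 0.560 CPM with PBS, from 5 counts, and 1087, 732 and 797 CPM with oxaliplatin. Its sgRNAs 1 and 2 went from 0 to 193, 802 and 1185 and from 0 to 94, 885 and 1525 counts, sgRNA 3 from 1 to 90, 2421 and 2290, and sgRNA 4 from 4 to 29591, 3578 and 3884. All 4 were higher in 3 of 3 libraries, and edgeR gave sgRNA 1 an adjusted p of 0.0433 and the others values from 0.0539 to 0.106. On the sum edgeR gave a log2 fold change of 11.07 (SE 1.51, adjusted p = 0.230), and without replicate 2 the sum was called (adjusted p = 6.07e-04). The fit without replicate 2 called 8 of 1823 genes and single-sgRNA entries higher (0.44%), against 1 of 58 members (1.72%). Without replicate 3 edgeR called 0 of 1823. As a median HAS3 was at 8.53 ± 1.66, or 7.30 at the floor. HAS2, the main synthase of many mesenchymal cells, had 542 CPM with PBS and 1427, 964 and 982 CPM with oxaliplatin and lay at 0.85 ± 0.57, above in 3 of 3. HAS1 had 1165 CPM with PBS and 666, 1299 and 1204 CPM with oxaliplatin, at -0.98 ± 1.44. After median-ratio scaling its sum was 1.06-, 1.05- and 0.91-fold. With 3 genes, the median of the step (0.85 ± 0.57) is the value of HAS2.

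Side by side, the steps of heparan synthesis ran from -1.47 ± 0.98 for polymerases over 0.53 ± 1.20 for N-sulfation and epimerization to 0.41 ± 0.66 for O-sulfation. Those of chondroitin ran from 0.18 ± 0.45 for polymerases to 0.08 ± 0.19 for sulfation and epimerization, with the shared linker at -0.68 ± 0.09. The linker median fell on a different gene in each library, so its small spread is not that of any gene. By library, heparan polymerases were at -2.60, -0.97 and -0.83 and chondroitin polymerases at -0.14, -0.00 and 0.70. Heparan polymerases thus lay lower in 3 of 3 comparisons that share the PBS library. In each library their median was the value of EXT2, while EXT1 and EXTL1 lay above the median gene in replicates 2 and 3. Of the sgRNAs of heparan and chondroitin polymerases, 3 of 20 and 5 of 24 had under 3 counts with PBS. With only sgRNAs of at least 100 PBS counts, against all genes over all sgRNAs, both steps lay below the median gene and much closer together. Heparan polymerases also lay below O-sulfation, at 1.17, 0.02 and 0.04, in 3 of 3. Differences between steps were not tested, since genes of a step are not replicates and the 3 comparisons share 1 PBS library.

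Among member sgRNAs with at least 100 counts with PBS, a cut chosen with results known, lower values were more frequent than higher ones, as in the whole library. 32 of 173 (18.5%) lay at least 2-fold below the PBS library in 3 of 3 libraries, against a background of 25.7%, and 10 (5.78%) lay at least 2-fold above it, against 3.4%. The heparan polymerases, with 20 of the 232 member sgRNAs before this minimum, held 7 of the 32. By gene these were 3 of the 3 sgRNAs that reached the minimum on EXTL2, 2 of 4 on EXT2, 1 of 2 on EXT1 and 1 of 4 on EXTL3. EXTL1, with 4 such sgRNAs, had none. The 10 were on B3GAT1, B3GAT2, B4GALT7, CHST3, CHST12, HS2ST1, HS3ST1, HS3ST3A1, HS3ST3B1 and NDST4, 1 sgRNA each, and are named by this count alone. sgRNA 3 of B3GAT2, an HNK-1 glucuronyltransferase, went furthest, from 1091 PBS counts to 31030, 15065 and 11444 (17.2-, 11.1- and 7.41-fold, edgeR adjusted p = 0.386). The most even was sgRNA 4 of CHST3, a chondroitin 6-O-sulfotransferase, at 3.33-, 3.11- and 3.15-fold. None of the 42 passed edgeR with all 4 libraries.

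7 member sgRNAs (3.02%, against 1.82% of all) were at least 10-fold higher in CPM in replicate 1 than in the mean of replicates 2 and 3. They were 1 sgRNA each of CHPF2 (55.5-fold), DSE (74.9-fold), HS2ST1 (23.4-fold), HS3ST2, HS3ST3B1, HS3ST6 and CHST4, the last 4 at 10.0- to 11.8-fold. 4 of these 7 act in heparan O-sulfation, the step with 44 of the 232 member sgRNAs. Without replicate 1, edgeR called 83 member sgRNAs higher (35.9% against a background of 38.3%) and 27 lower (11.7% against 15.4%), and 12 member genes higher (20.7% against 22.9%) and 10 lower (17.2% against 18.2%). These calls rest on replicates 2 and 3 alone and assume that the lone PBS library varies as little as they do.

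By that fit EXTL2 was lowest, at an edgeR log2 fold change of -2.46 (SE 0.43, adjusted p = 2.92e-06), and UGDH, HS3ST5, CHSY1, CHST7, CHST10, CSGALNACT2, HS3ST2, EXT2 and PAPSS2 followed between -1.06 and -0.67. On the higher side were HAS3 at 10.45 (SE 0.51, adjusted p = 5.71e-28), PAPSS1, HS3ST3B1 at 3.45 (SE 0.37, adjusted p = 7.96e-12), CHST9 at 2.32 and CHST4, CHSY3, B4GALT7, HS3ST1, UST, HAS2, CHST3 and CHPF between 1.87 and 0.85. CSGALNACT2 was called lower here as a sum although its median over sgRNAs was above the median gene, with 2 of its 4 sgRNAs at 0 with PBS. CHSY3 and UST were called higher as sums although their mean values as medians over sgRNAs lay below the median gene.

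Related genes were compared from a list of 24 that break down these chains or supply their sugar nucleotides. edgeR called 0 of the 24 genes in either direction (2 higher and 1 lower at an unadjusted p under 0.05) and 6 of their 96 sgRNAs higher (6.25%, against 8.31% of all), among them sgRNAs of IDUA, a lysosomal iduronidase, and SULF1, an extracellular sulfatase of heparan sulfate. Each of the 6 had at most 4 counts with PBS. The lysosomal acetyltransferase HGSNAT was lowest at -1.27 ± 0.41 and HPSE2, a relative of heparanase, highest at 5.95 ± 0.31 (4.10 at the floor), with 80.4 CPM with PBS and 629, 337 and 405 CPM with oxaliplatin. The median of the 24 was -0.08 ± 0.11, next to -0.11 ± 0.10 for the synthesis genes.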

How the data were processed

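Whole-number counts of reads per sgRNA were used as deposited. The authors amplified the sgRNA region of genomic DNA in a 2-step PCR, and the submitters' notes name MAGeCK without a version. The sources used here do not give how reads were matched to sgRNAs. The table of the series and the files per library held equal values for 100% of sgRNAs. As PCR copies are no independent molecules, every interval and floor is for counting error alone. All 58 symbols are current, and sgRNA sequences were not used here. sgRNAs or genes with at least 10 counts over the 4 libraries were tested with edgeR 4.0.16 (TMM, quasi-likelihood, Benjamini-Hochberg over all tested) in R 4.3.3, and with DESeq2 1.42.0 as an alternative. These fits give the lone PBS library the spread seen among oxaliplatin libraries. Fold changes were computed in Python 3.11.15 with a pseudocount of 1, and both steps were tested on simulated data. Replicates 2 and 3 differed by more than sampling noise (chi-square per degree of freedom 87.4 over sgRNAs) and were counted apart. Genes named are those called, the lowest and highest of each step, and the main enzymes of each step, and a few others were named after their values were seen. The members and lists were chosen with earlier results of these data known. A further related gene is counted in the sums but not named, and its values are not reported here.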

Additional observations from a re-analysis of the deposited data

How the results depend on the processing

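Counts of called sgRNAs depended on scaling, tool and library. Against 13 member sgRNAs called higher by edgeR, total-count scaling gave 0, DESeq2 49, and a minimum of 30 PBS counts 0 (179 members tested, 2 at an unadjusted p under 0.05). At that minimum edgeR called 0 of all 4958 sgRNAs. Leaving out each oxaliplatin replicate gave 5 to 83 higher and 0 to 27 lower, 5 without replicate 3 and 83 and 27 without replicate 1. Shares called higher were 2.17% of members against 4.92% of all sgRNAs without replicate 3, and 5.63% against 8.29% without replicate 2. Without replicate 1 they were 35.9% against 38.3% higher and 11.7% against 15.4% lower. Member genes called higher were 0, or 4 with DESeq2 and 0 to 12 without a replicate, and genes called lower were 0, or 1 with DESeq2 and 0 to 10. With DESeq2 these were 6.90% higher and 1.72% lower, against 6.75% and 2.03% of all genes and entries. Without replicate 1 they were 20.7% and 17.2% against 22.9% and 18.2%. The median over member genes, -0.11, was 0.015 with a pseudocount of 50, 0.45 with only sgRNAs of at least 100 PBS counts and -0.48 with the mean over sgRNAs. The linker, at -0.68, was at -0.57 and -0.42 with a pseudocount of 10 and 50, -0.56 at the floor of 3 counts, 0.21 with at least 100 PBS counts and -0.36 with the mean over sgRNAs. With at least 100 PBS counts heparan polymerases were at -0.47, chondroitin sulfation and epimerization at 1.03 and the genes of other glycans at 0.68. Those other genes were at -0.094 with a pseudocount of 50 and at -1.22 with the mean over sgRNAs, which put chondroitin polymerases at -0.78. These settings also moved the median of all genes that is subtracted, by -1.18 with at least 100 PBS counts, -0.10 and -0.23 with a pseudocount of 10 and 50, -0.12 at the floor and 1.11 with the mean. Against the median of all genes over all sgRNAs, a reference chosen after seeing the data, the sgRNAs of at least 100 PBS counts gave -0.73 over member genes, -1.20 for precursor supply, -0.97 for the linker, -0.966 for heparan N-sulfation and epimerization and -0.947 for O-sulfation. They gave -1.32 for chondroitin polymerases, -0.151 for chondroitin sulfation and epimerization, -0.507 for other glycans and -0.467 for hyaluronan synthases. The other scalings moved no step by more than the spread between libraries. No paired analysis was possible because all 3 oxaliplatin libraries share 1 PBS library, whose own spread is unknown.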
